A study of Mus musculus with 3 samples.

Results

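Dmd is the gene of dystrophin, a large protein of the muscle fibre that links the actin cytoskeleton under the cell membrane to a membrane complex that holds the extracellular matrix. It spans X:82814664 to 85205050 (mm10), which at 2.39 Mb makes it the longest of the 1255 protein-coding and long noncoding genes placed on chromosome X by the gene table used. Members were all listed single-base sites in the gene and 5 kb on both sides (X:82809664 to 85210050). The window held 7987 different sites of 651848 on the chromosome, namely 1553 of 119257 in the MidK library, 2018 of 186841 in LowK and 5039 of 411944 in MEF.

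Loss of dystrophin causes Duchenne muscular dystrophy, and fibroblasts are not a tissue known for the full-length protein. The gene has several promoters: upstream ones give the full-length forms of muscle and brain, and internal ones give shorter forms, among them Dp71, which many tissues make. The reads came from chromatin pulled down with an antibody against LSD1 (Kdm1a), a demethylase that removes methyl groups from lysines of histone H3 and is best known as a part of corepressor complexes.

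The groups were mouse cells with 1 library each. MidK were embryonic fibroblasts that received SeVdp(fKOSMaB), a reprogramming vector built on Sendai virus, and were taken at day 20 with 30 nM Shield1, a small molecule that protects proteins carrying a destabilising domain from breakdown. LowK received that vector too and were taken at day 20 without Shield1. MEF were the fibroblasts at day 0. No input library was used here, and the sources used here do not name the strain of the variant base. Chromatin reads give no expression level, so the labelled cell type was not checked against markers. A site is listed only where a variant read was seen, so a stretch with few listed sites may have few variants or few reads, and without an input these cannot be told apart. No difference below has a replicate check, no p-value was computed, and 95% intervals cover counting error only.

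Over the chromosome the lists held 203350 reads by allele in MidK, 295240 in LowK and 883058 in MEF, with 1.71, 1.58 and 2.14 reads per site. Inside Dmd the depth was a little lower, at 1.55 reads per site in MidK, 1.40 in LowK and 1.96 in MEF, and 74.2%, 74.4% and 53.0% of the Dmd sites had a single read. At every one of 2430 listed sites that fell in a chromosome X promoter of the RefSeq table, the B6 base equalled the reference base, so files and table share their coordinates.

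The RefSeq table (GRCm38.p6) holds 2 promoter sequences of Dmd, both on the plus strand, each 300 bases long around a transcript start. They are shown because they place 2 of the gene's transcript starts. The first holds 1 listed position, in LowK alone, and the second holds 2. The first is at X:82948620-82948919, 134 kb from the start of the gene as annotated, and belongs to the full-length muscle form. The second is at X:85048045-85048344, 157 kb from the end, and lies where the short form Dp71 begins. Capitals mark bases with a listed variant in any of the 3 libraries.
first Dmd promoter: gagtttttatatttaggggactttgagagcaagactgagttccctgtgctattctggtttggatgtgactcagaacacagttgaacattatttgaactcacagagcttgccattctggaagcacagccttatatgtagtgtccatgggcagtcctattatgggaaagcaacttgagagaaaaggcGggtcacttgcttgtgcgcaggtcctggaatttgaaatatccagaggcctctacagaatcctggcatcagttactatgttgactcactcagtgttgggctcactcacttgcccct
second Dmd promoter: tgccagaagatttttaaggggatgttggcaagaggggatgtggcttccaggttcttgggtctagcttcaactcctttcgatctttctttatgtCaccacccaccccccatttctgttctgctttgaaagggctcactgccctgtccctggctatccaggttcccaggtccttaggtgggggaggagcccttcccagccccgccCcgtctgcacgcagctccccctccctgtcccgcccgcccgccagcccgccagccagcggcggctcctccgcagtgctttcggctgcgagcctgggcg
Positions are counted from 1 at the 5′ end of each sequence. In the first promoter LowK listed G186T, with 0 B6 reads and 2 variant reads. In the second, C204T had 0 B6 reads and 1 variant read in MidK and 2 B6 reads and 2 variant reads in LowK, while MEF listed C94T with 0 B6 reads and 1 variant read. With counts this small the promoters themselves give no allele share.

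The promoters differ in base composition. The first had 45.7% G and C and 2 CpG pairs, and the second 62.7% and 14 CpG pairs. A CArG box, the motif bound by serum response factor, was found in the first at positions 153 to 162 and in 3.36% of 1220 chromosome X promoters of that length, both strands searched. The letters GGGCGG were found 3 times in the second, both strands and overlapping matches counted, and at least once in 33.9% of the promoters. In the 10 kb on each side of the first start, MidK had 25 reads, LowK 13 and MEF 76; reads spread evenly over the window would give 20.1, 23.6 and 82.2. LowK lay below its even spread there (exact Poisson interval 6.92 to 22.2), and the intervals of MidK and MEF held theirs. Around the second start MidK had 31 reads, LowK 47 and MEF 100, against the same even spread. These were above it in MidK (21.1 to 44.002) and LowK (34.5 to 62.5), and in MEF the interval held it (81.4 to 122). Single sites made up a good part of these small counts. Near the first start, X:82953105 (138.441 kb from the gene start) had 9 B6 reads and 2 variant reads of the 25 in MidK. Another MidK site, at 138.421 kb, had 4 B6 reads and 2 variant reads and can share reads with it. All 13 B6 reads of MidK around the first start were at these 2 sites. X:85048492, near the second start, had 3 B6 reads and 6 variant reads of the 47 in LowK. The share of chromosome X promoters with fewer reads was 61.2% in MidK, 11.6% in LowK and 17.6% in MEF for the first, and 73.4%, 51.6% and 29.4% for the second.

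The whole gene held a smaller part of the reads in LowK than in MidK and MEF. Dmd had 2409 reads in MidK, 2833 in LowK and 9869 in MEF. Per 10000 reads of the chromosome this was 118 in MidK (113.8 to 123), 96.0 in LowK (92.5 to 99.6) and 112 in MEF (109.6 to 114). Per length, Dmd had 100.4 reads per 100 kb in MidK, 118 in LowK and 411 in MEF. In MidK 50.4% of genes had fewer reads per length, against 22.5% in LowK and 22.8% in MEF, so Dmd lay in the middle of the genes in MidK and among the lower ones in the other 2 libraries. A difference was called when scaled reads lay at least 2-fold apart, the Poisson intervals of both libraries were apart and 1 of them had at least 30 reads.

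Relative to the median gene of the chromosome, Dmd was not called in any comparison. The ratio of MidK over LowK was 1.82 (95% interval 1.72 to 1.92), that of MidK over MEF 1.43 (1.37 to 1.499) and that of LowK over MEF 0.803 (0.770 to 0.838). Of the tested genes, 8.73% were called higher and 11.9% lower in MidK over LowK, 9.45% and 9.82% in MidK over MEF, and 7.23% and 6.3% in LowK over MEF. With library totals the ratios were 1.23, 1.06 and 0.859. The scaling thus moves every MidK ratio: totals shift the log2 ratio by -0.56 for MidK over LowK, by -0.44 for MidK over MEF and by 0.10 for LowK over MEF. The comparisons share libraries, so they are not independent of one another.

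**Figure D1:**
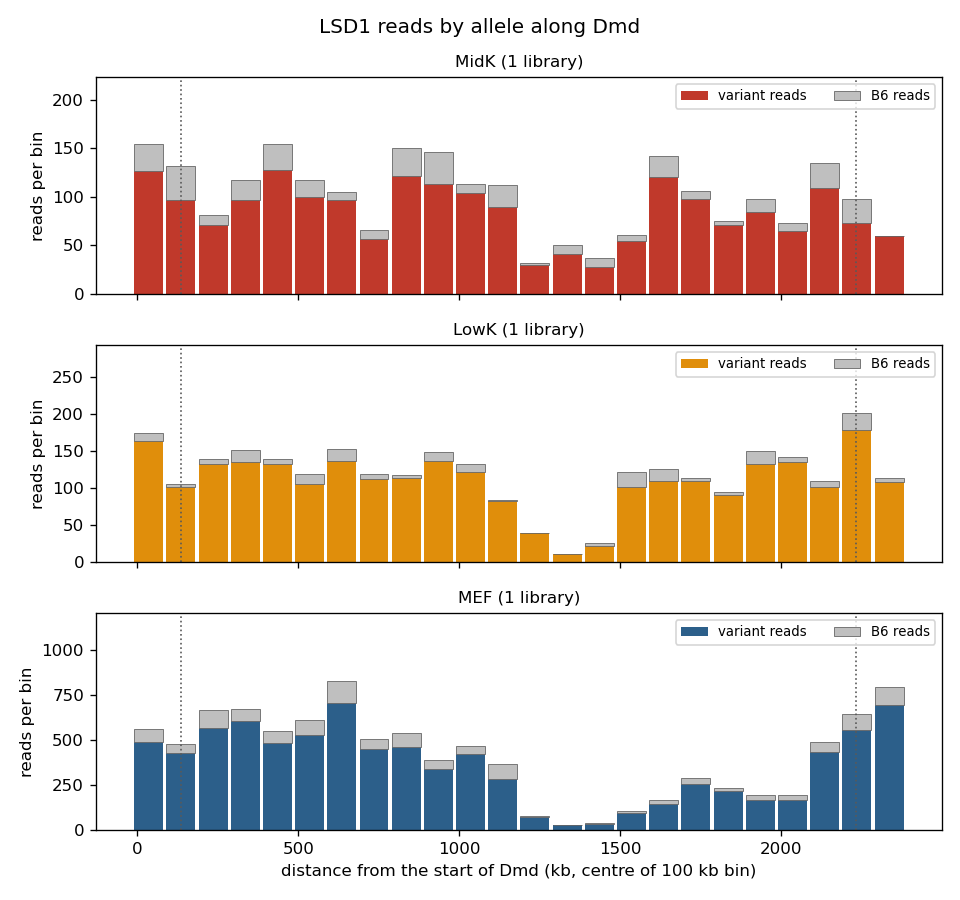
Reads with the variant base (coloured) and with the B6 base (grey) in each 100 kb bin along Dmd, against distance from the start of the gene in kb, 1 panel per library with its own scale; dotted lines mark the 2 promoter starts. Bins hold 32 to 154 reads in MidK, 11 to 202 in LowK and 30 to 829 in MEF, with the fewest in the bins centred at 1235 to 1435 kb in each library.

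Along the gene the reads were uneven in all 3 libraries, and MEF was the most uneven. The plot of reads by allele shows 24 bins of 100 kb from X:82800001 to 85200000. A bin held 32 to 154 reads in MidK (median 105.5), 11 to 202 in LowK (median 120) and 30 to 829 in MEF (median 471). The coefficient of variation over bins was 0.374 in MidK, 0.372 in LowK and 0.580 in MEF. Over all 1609 bins of the chromosome it was 0.871, 0.543 and 0.423, so within Dmd the reads per bin varied less than chromosome-wide in MidK and LowK and more in MEF. For listed sites per bin it was 0.368, 0.341 and 0.535 in Dmd, against 0.399, 0.441 and 0.375. By sites, MidK was thus about as uneven in Dmd as chromosome-wide. Between libraries, reads per Dmd bin had a Pearson r of 0.57 for MidK and LowK, 0.43 for MidK and MEF and 0.62 for LowK and MEF over the 24 bins, which share the same variant positions in part.

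The fewest reads lay in the same place in each library. The 3 bins of X:84000001 to 84300000 held 32, 50 and 37 reads in MidK, 39, 11 and 26 in LowK and 78, 30 and 39 in MEF. The 15 bins outside X:84000001 to 84900000 held 60 to 154 reads in MidK, 84 to 202 in LowK and 366 to 829 in MEF, so the ranges did not overlap in any library. These 3 bins carried 4.93% of the Dmd reads in MidK, 2.68% in LowK and 1.49% in MEF. They had few listed sites too, 57 in MidK, 62 in LowK and 96 in MEF. In MidK, 25 of the 50 reads of the middle bin came from 1 position, X:84159458, with 3 B6 reads, 22 variant reads and 6 further reads of neither base. It was the deepest Dmd site of any library, and no other MidK site in the gene had more than 11 reads. At 50 kb, LowK listed no site at all in X:84050001 to 84100000, where MidK had 17 reads and MEF 18.

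Next to it was a stretch where MEF differed from the other libraries. In the 6 bins of X:84300001 to 84900000, MidK had 61 to 142 reads and LowK 95 to 150, within the range of the 15 outer bins of the same library, while MEF had 107 to 290 and all its outer bins had more. The stretch carried 23.0% of the Dmd reads in MidK, 26.4% in LowK and 12.0% in MEF. Both stretches were chosen after their values were seen. With the window cut into 4 equal parts of 0.600 Mb instead, the third part (X:84009857 to 84609953) held 17.6% of the reads in MidK (16.1% to 19.2%), 15.3% in LowK (14.0% to 16.7%) and 7.60% in MEF (7.08% to 8.14%). The lower 1.20 Mb of the window held 59.7% of the reads in MidK (57.7% to 61.7%), 55.5% in LowK (53.6% to 57.3%) and 66.6% in MEF (65.6% to 67.5%). The intervals of the 3 libraries did not overlap. With 1 site per 300 bp those of MidK (54.0% to 59.6%) and LowK (49.3% to 54.6%) overlapped, and that of MEF (62.6% to 65.5%) lay above both. With each such site counted once they were 54.0% to 60.7% in MidK, 50.8% to 56.9% in LowK and 60.9% to 64.9% in MEF. The lower 1.20 Mb holds the full-length muscle promoter, and the upper 1.20 Mb the Dp71 promoter. The third part of 0.600 Mb, which had the lowest share of the 4 parts in each library, holds neither of these 2. The last part, with the Dp71 promoter, held 22.7% of the reads in MidK, 29.2% in LowK and 25.8% in MEF. A link between these promoters and the shares was not tested.

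**Figure D2:**
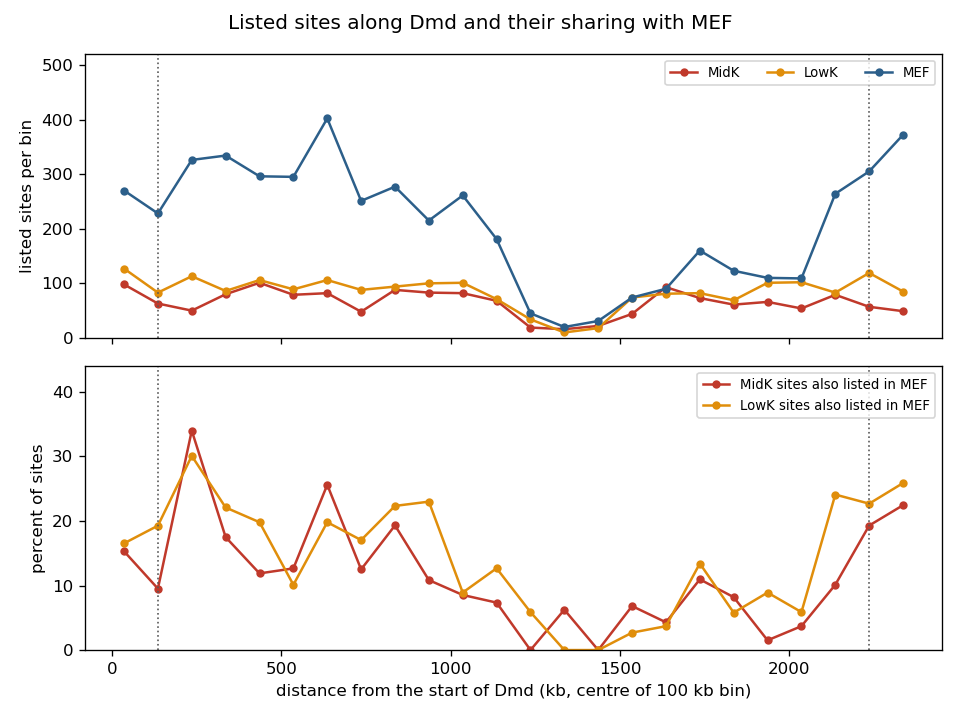
Upper panel, listed sites per 100 kb bin along Dmd in each library, and lower panel, the percent of MidK and of LowK sites that MEF also lists, both against distance from the start of the gene in kb; dotted lines mark the 2 promoter starts. MEF falls from up to 402 sites to 20, and sharing with MEF is lowest in the same middle stretch.

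Listed sites moved together with the reads. Per bin, MEF listed 181 to 402 sites in the 15 outer bins and 74 to 160 in X:84300001 to 84900000, whereas LowK listed 71 to 127 and 69 to 102, and MidK 48 to 101 and 44 to 93. In that stretch MidK had 1.42 reads per site, against 1.57 in the outer bins, and LowK 1.47, against 1.38. MEF had 1187 reads at 666 sites there, or 1.78 per site, against 8553 reads at 4277 sites in the outer bins. The number of listed sites and the reads per site both enter the read counts of a bin, and their parts in the differences between libraries were not tested.

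The stretch also differed in which sites the libraries had in common. In the outer bins, 15.3% of the 1107 MidK sites and 19.8% of the 1451 LowK sites were also listed in MEF. In X:84300001 to 84900000 these shares were 5.88% of 391 MidK sites and 6.88% of 509 LowK sites. MidK sites listed in LowK did not drop in this way, at 7.67% in the stretch and 7.23% in the outer bins. Since MEF listed fewer sites there, a lower chance of a match with MEF is built into these shares. Taken the other way round, 3.45% of the 666 MEF sites were listed in MidK and 5.26% in LowK, against 3.95% and 6.71% of the 4277 outer MEF sites.

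Over the whole window most sharing was lower than on the rest of the chromosome. Of the MidK sites 12.5% were listed in MEF (10.9% to 14.2%), against 16.7% elsewhere (16.5% to 16.9%). For LowK sites it was 16.3% (14.7% to 17.9%) against 20.4% (20.2% to 20.6%), and 7.21% of MidK sites were listed in LowK (5.97% to 8.61%) against 9.56%. For LowK sites listed in MidK it was 5.55% (4.59% to 6.64%) against 6.09%, which lies in the interval. Of the MEF sites, 3.85% were listed in MidK (3.34% to 4.42%) against 4.83%, and 6.51% in LowK (5.84% to 7.23%) against 9.25%. Where 2 libraries listed the same Dmd position they named the same variant base at 194 of 194 positions for MidK and MEF, 328 of 328 for LowK and MEF, and 111 of 112 for MidK and LowK. All 3 libraries listed 11 Dmd sites. These had 0 B6 and 13 variant reads in MidK, 1 and 15 in LowK and 1 and 16 in MEF, so they carry no information on a change of allele share. Transitions, changes between A and G or between C and T, made up 58.0% of the Dmd sites in MidK, 59.4% in LowK and 61.1% in MEF, against 59.7%, 61.9% and 61.8% on the rest of the chromosome.

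**Figure D3:**
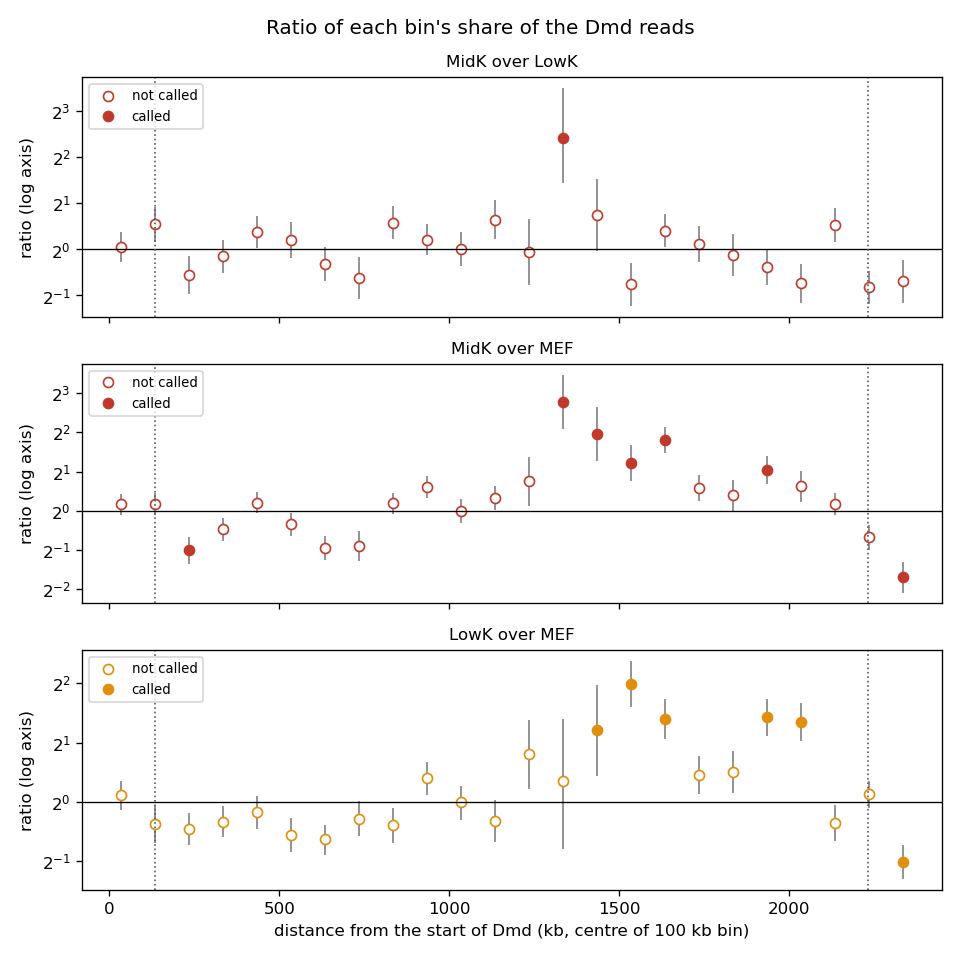
Ratio, on a log axis, of each 100 kb bin's share of the Dmd reads between 2 libraries, against distance from the start of the gene in kb; bars are exact 95% intervals, filled points are called and dotted lines mark the 2 promoter starts. Against MEF, the called higher bins of MidK and LowK are centred at 1335 to 2035 kb, and the last bin is called lower in both.

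MidK over MEF had 9 of the 24 Dmd bins called higher and 1 lower, relative to the median gene. Over the chromosome 11.6% of 1520 bins were called higher and 1.12% lower. The highest ratio, 9.79 (6.10 to 15.9), was that of X:84100001 to 84200000, which holds the deep MidK site named above. It was followed by 5.57 (3.46 to 8.97) at X:84200001 to 84300000, with 37 reads in MidK and 39 in MEF, by 4.99 (3.96 to 6.28) at X:84400001 to 84500000, with 142 and 167, and by 3.35 (2.40 to 4.63) at X:84300001 to 84400000, with 61 and 107. The other called higher bins, with ratios of 2.15 to 2.95, began at X:83700001, 84000001, 84500001, 84700001 and 84800001. The lower bin was the last one, X:85100001 to 85200000, with 60 reads in MidK and 793 in MEF (0.444, 0.336 to 0.578). Scaled to the reads of the Dmd bins themselves, as the plot of bin ratios shows, 5 were higher and 2 lower, the added lower one being X:83000001 to 83100000 (0.498). With library totals 5 were higher and 1 lower.

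LowK over MEF had 4 bins called higher and 1 lower, while 1.19% of 1515 bins of the chromosome were called higher and 3.3% lower. The 4 were X:84300001 to 84400000, with 121 reads in LowK and 107 in MEF (3.16, 2.42 to 4.14), X:84400001 to 84500000, with 126 and 167 (2.11, 1.66 to 2.68), X:84700001 to 84800000, with 150 and 195 (2.15, 1.73 to 2.68), and X:84800001 to 84900000, with 142 and 194 (2.05, 1.64 to 2.56). All 4 lie in the stretch where MEF had few reads and listed few sites. At sites with a reliability of at least 20 the balance turned, with 2 bins higher and 10 lower. The last bin was lower, with 113 reads in LowK and 793 in MEF (0.399, 0.324 to 0.486). In that bin MEF was above 93.2% of the bins of the chromosome, while MidK was above 11.0% and LowK above 14.7%. MidK and LowK are both set against the same MEF library here, so bins called in both comparisons are not 2 observations. With 1 site per 300 bp and each site counted once, 0 bins were called in LowK over MEF and 1 in MidK over MEF.

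MidK over LowK had 10 bins called higher and 0 lower relative to the median gene. This count follows the scaling: 18.6% of 1503 bins of the chromosome were called higher and 0.931% lower, and with library totals or with the gene's own reads 1 Dmd bin was called. That bin was X:84100001 to 84200000, with 50 reads in MidK and 11 in LowK (9.72, 4.99 to 20.7), in which 25 of the MidK reads came from 1 site. Without sites of more than 20 reads that bin had no call, since neither library then reached 30 reads. The other called bins had ratios of 2.10 to 3.04, spread from X:82900001 to 85000000.

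At 50 kb the balance of LowK over MEF turned from mostly higher to mostly lower calls, while that of both MidK comparisons stayed mostly higher. Of 48 bins, 45 could be tested in MidK over MEF, with 14 higher and 1 lower (16.6% and 3.46% of the bins of the chromosome). In LowK over MEF 44 could be tested, with 5 higher and 8 lower (1.62% and 7.27%). With library totals this balance held, with 5 higher and 7 lower. It turned with other scalings, to 8 higher and 7 lower relative to the median bin and 9 higher and 5 lower with the gene's own reads. In MidK over LowK it was 43, with 16 higher and 0 lower (23.5% and 2.19%), and with the gene's own reads 1 higher and 3 lower. The highest LowK over MEF ratio among tested bins was 4.45, at X:84350001 to 84400000, with 62 reads in LowK and 39 in MEF. A lower call in LowK over MEF with LowK at 13 reads and MEF at 147 was that of X:83500001 to 83550000 (0.247).

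Genes nested in Dmd share its reads. Tsga8 (X:83486674 to 83487924) held 5 reads in MidK, 15 in LowK and 9 in MEF. Gm46696 held 19, 19 and 60, and Gm52441 held 0 in each library.

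B6 reads were a minority at listed Dmd sites, and the listing requires a variant read. They made up 15.7% of the Dmd reads in MidK (14.3% to 17.2%), 7.84% in LowK (6.87% to 8.89%) and 12.7% in MEF (12.1% to 13.4%). On the rest of the chromosome it was 18.9%, 9.87% and 14.2%, each above the interval of Dmd. Depth enters this share, since a listed site with a single read holds no B6 read. Such sites made up 74.2%, 74.4% and 53.0% of the Dmd sites, against 69.6%, 67.7% and 47.3% on the rest of the chromosome. Sites with 1 read of each base were seldom listed, and to a different degree in each library. Of the listed Dmd sites with 2 reads, 36 of 214 had a B6 read in MidK, 32 of 324 in LowK and 10 of 1062 in MEF. The B6 shares of the libraries are thus not on an equal footing, and the part of the listing in them was not tested. In MidK the B6 share per 100 kb bin ran from 0% of 60 reads in the last bin to 26.5% of 132 reads in X:82900001 to 83000000, which holds the muscle promoter. In LowK that bin had 3.77% of 106 reads and in MEF 10.5% of 478. In MidK it had 35 B6 reads. Of these, 9 and 4 were at sites 138.441 and 138.421 kb from the gene start, which can share reads. MidK depth differed between the extremes, with 2.10 reads per site in X:82900001 to 83000000 and 1.22 in the last bin. A link of the B6 share to the promoter was not tested. No B6 read was seen at 87.4% of the Dmd sites in MidK, 92.0% in LowK and 85.7% in MEF. At a matched depth of exactly 5 reads this was 2 of 23 sites in MidK, 1 of 17 in LowK and 28 of 177 in MEF. The MEF share, 15.8% (10.8% to 22.0%), lay below the 26.7% of the rest of the chromosome (26.0% to 27.3%). At 4 reads the MEF share in Dmd was 41.8% (36.5% to 47.3%) against 38.3%, so the direction at 5 reads did not hold at the next lower depth. In MidK the Dmd shares at 3, 4 and 5 reads were 28.6%, 8.70% and 8.70%, against 31.4%, 9.37% and 4.23% on the rest of the chromosome. In LowK they were 42.3%, 22.2% and 5.88%, against 51.1%, 28.4% and 17.3%. Each of these MidK and LowK chromosome values lay within the interval of Dmd.

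**Figure D4:**
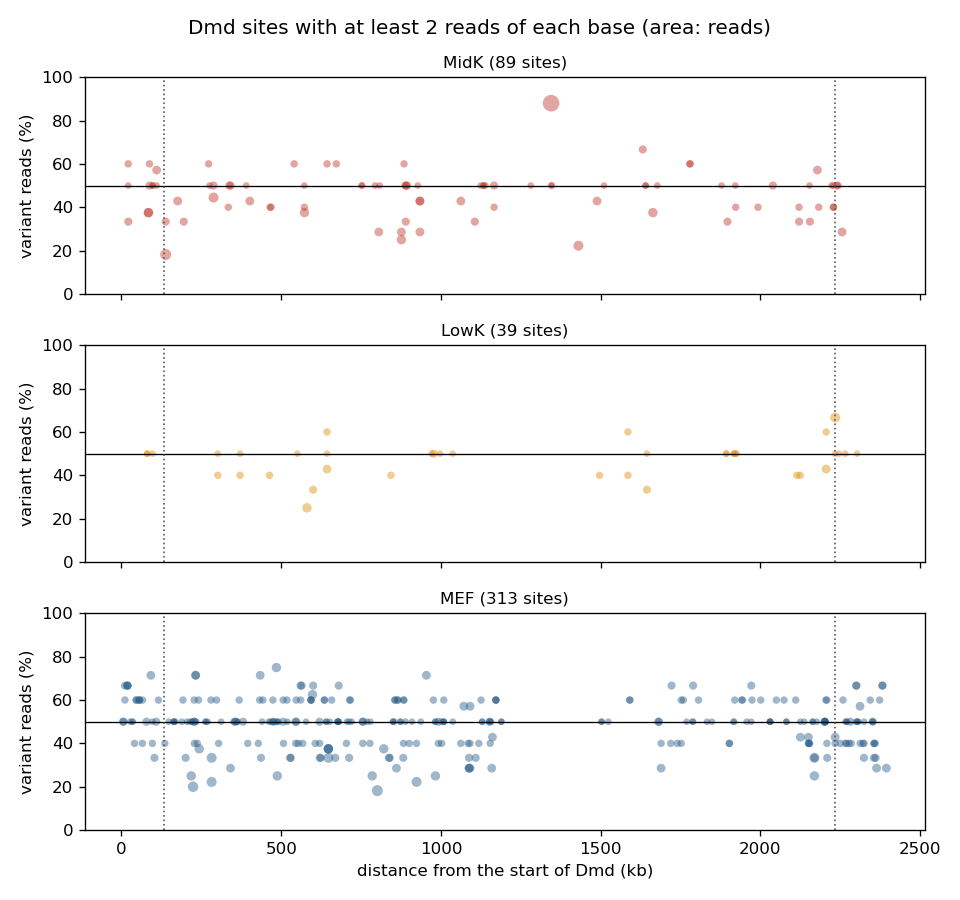
Percent of variant reads at each Dmd site with at least 2 reads of each base, against distance from the start of the gene in kb, 1 panel per library; point area grows with the reads, the solid line is at 50% and dotted lines mark the 2 promoter starts. MidK has 89 such sites, LowK 39 and MEF 313, and in all 3 libraries more untied points lie below the line than above it.

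Sites with at least 2 reads of each base gave the allele majority. There were 89 in MidK, 39 in LowK and 313 in MEF, found in 23, 15 and 22 of the 24 bins. In MidK the variant base had more reads at 13 and the B6 base at 37, in LowK it was 4 and 13, and in MEF 84 and 100; the rest were ties. Over all reads of these sites the variant base had 46.3% in MidK, 46.8% in LowK and 47.9% in MEF. Kept to 1 site per 300 bp and at most 20 reads, 10 of 35 untied sites had a variant majority in MidK (28.6%, interval 14.6% to 46.3%). In LowK it was 1 of 11 (9.09%, 0.230% to 41.3%), and in MEF 61 of 132 (46.2%, 37.5% to 55.1%).

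These shares were not called different in Dmd. MidK lay 17.6 points below MEF (difference -17.6), LowK 37.1 points below MEF (difference -37.1) and MidK 19.5 points above LowK, and the intervals overlapped in each pair. Without thinning, MidK lay 0.960 points above LowK, with 12 of 49 sites against 4 of 17, and with the last site of those within 300 bp kept it lay 7.02 points above. At sites with a reliability of at least 20 the variant majority was 8 of 19 in MidK, 1 of 6 in LowK and 59 of 100 in MEF (59%). With that limit most untied MEF sites thus had a variant majority, unlike in the main setting. A call needed a gap of at least 10 points, intervals apart and at least 10 sites in both libraries, which few genes could meet: 14 genes were testable in MidK and MEF, 5 in LowK and MEF and 3 in MidK and LowK, and 0% of them were called. On the rest of the chromosome the variant majority was 23.2% of 3022 sites in MidK (21.7% to 24.8%). In LowK it was 45.5% of 1816 sites (43.2% to 47.8%), and in MEF 48.5% of 11421 (47.6% to 49.4%). The Dmd values of MidK and MEF include those of the chromosome in their intervals. That of LowK does not reach 45.5% but rests on 11 sites, and without thinning it was 4 of 17 (23.5%).

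Along the gene the majority could be followed only in MEF. In the 4 parts of 0.600 Mb from the start, the MEF variant majority was 25 of 46 sites, 15 of 41, 4 of 8 and 17 of 37. In MidK it was 4 of 13, 3 of 8, 2 of 5 and 1 of 9, and in LowK 0 of 3, 0 of 2, 1 of 3 and 0 of 3. In MidK no part had a variant majority, and the intervals of the 4 parts overlapped in every library. Single 100 kb bins had at most 4 such sites in MidK, 2 in LowK and 12 in MEF.

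Few of these sites of a library were listed in another. Of the 89 MidK sites 5 were listed in MEF, with a B6 read there at 0 of them, and 5 in LowK, with a B6 read at 1. Of the 39 LowK sites 3 were listed in MEF, with a B6 read at 0, and 5 in MidK, with a B6 read at 3. Of the 313 MEF sites 17 were listed in MidK, with a B6 read at 2, and 24 in LowK, with a B6 read at 1. Depth in the second library was not taken at these sites alone. Over all Dmd sites it was 1.55 reads per site in MidK, 1.40 in LowK and 1.96 in MEF. At such depths a missing B6 read does not show a missing allele.

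**Figure D5:**
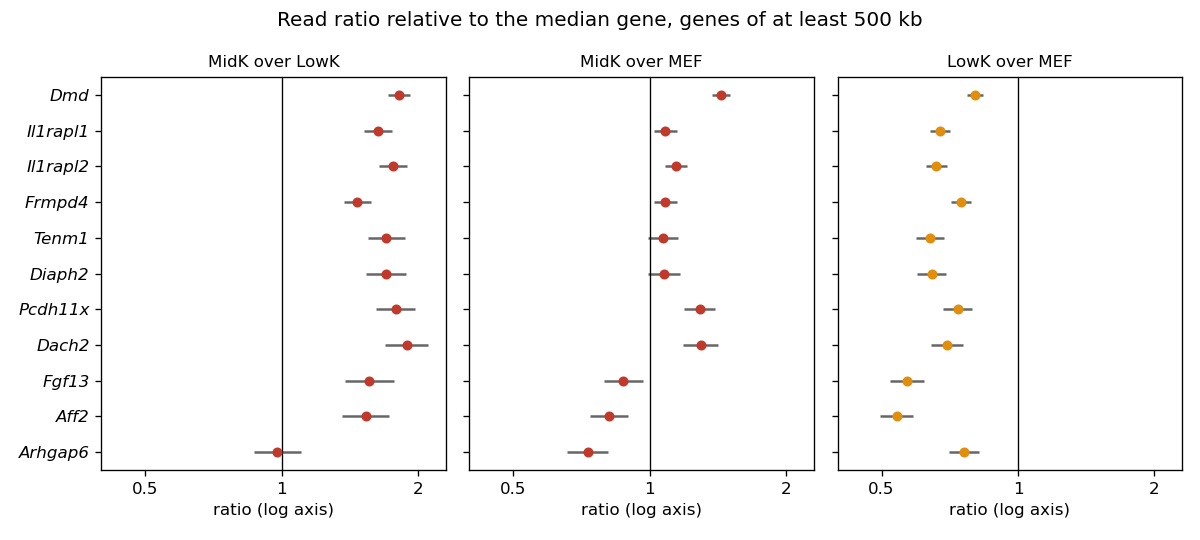
Read ratio relative to the median gene, on a log axis with exact 95% intervals, for Dmd and the 10 other chromosome X genes of at least 500 kb, ordered by length from the top. Dmd is at 1.82, 1.43 and 0.803 in the 3 comparisons, and no gene shown reaches 2 or 0.5 with a call.

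Dmd was set beside the 10 other genes of at least 500 kb. None of them was called in any comparison. Their median log2 ratio was 0.74 in MidK over LowK, 0.11 in MidK over MEF and -0.58 in LowK over MEF, with Dmd at 0.86, 0.52 and -0.32; over all tested genes the median is 0 by construction. In MidK over MEF the whole-gene Dmd interval (1.37 to 1.499) lay above those of 8 of them. It overlapped those of Pcdh11x, a protocadherin gene (1.29, 1.19 to 1.40), and Dach2, a transcription factor gene (1.29, 1.19 to 1.41). The 15 outer bins held 72.1% of the Dmd reads in MidK, 70.9% in LowK and 86.5% in MEF. Over the outer bins alone Dmd would thus have lower ratios to MEF than over the whole gene. How those would compare with the other long genes was not tested. In LowK over MEF Il1rapl1, a synaptic adhesion gene and the next longest, was at log2 -0.57, and Aff2 lowest at -0.89. Per length Dmd had 411 reads per 100 kb in MEF, the fewest of the 11 genes, whose others had 489 to 655. This low value was local: the 15 outer bins averaged 570 reads per 100 kb bin in MEF, within that range. The bins of X:84000001 to 84300000 averaged 49 and those of X:84300001 to 84900000 averaged 198. In MidK Dmd had 100.4 reads per 100 kb among 78.0 to 120.5, and in LowK 118 among 111.7 to 175.

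X-linked genes of muscle disease were listed for comparison, since the partners of dystrophin in the membrane are encoded elsewhere: Fhl1, a LIM-domain gene; Emd, of the nuclear envelope protein emerin; Mtm1, of the phosphatase myotubularin; Lamp2, of a lysosomal membrane protein; Bgn, of the matrix proteoglycan biglycan; Phka1, of muscle phosphorylase kinase; Taz, of the cardiolipin enzyme tafazzin; Gla, of alpha-galactosidase; Vma21, of a proton pump assembly factor; and Pgk1, of phosphoglycerate kinase. None of the 10 was called in any comparison. Their median log2 ratio was 0.02 in MidK over LowK, -0.15 in MidK over MEF and -0.01 in LowK over MEF. Mtm1 (195 reads in MidK and 778 in MEF; log2 0.56) and Phka1 (226 and 953; 0.48) had MidK over MEF ratios near that of Dmd, and Emd had the lowest (16 and 151; -0.68).

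Beyond the end of Dmd, Fthl17a, a ferritin-like gene, had 50 reads in MidK, 79 in LowK and 153 in MEF and was not called. Tab3, of a kinase-activating adaptor, had 57, 148 and 478 and was not called. Gm39523, a noncoding gene inside Tab3, had 8, 23 and 123 and was called lower in MidK over MEF (0.382, 0.161 to 0.777). The 5 genes nearest to Dmd in both log2 ratios to MEF, of 543 with at least 30 reads in each library, were Pola1, a DNA polymerase subunit gene, Prrg1, Cdk16, a cyclin-dependent kinase gene, Cul4b, a ubiquitin ligase scaffold gene, and Rhox11, a reproductive homeobox gene, at distances of 0.0329 to 0.0883. The log2 ratio of Pola1 was 0.55 in MidK over MEF, and -0.31 in LowK over MEF.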

How the data were processed

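Chromatin bound by LSD1 was sequenced from 3 samples, MidK, LowK and MEF, grouped by their titles, with 1 library each. Alignment used BWA and the mouse build mm10, as the submitters' processing notes list them, and bcftools mpileup called the variants, per the series' design text. Program versions, filters and any removal of duplicates were not stated there. For each position the files hold deposited counts of reads: one column for the B6 base and one for the variant base, per the file headers. A reliability score, also deposited, served in 1 alternative, and its MidK column carries another name prefix than the counts.

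Single-base sites were kept. Entries of other kinds made up 5.56% of the entries in MidK, 6.13% in LowK and 6.97% in MEF, and 0, 3 and 8 single-base sites at positions with a second entry were dropped. Genes and promoters came from RefSeq tables of GRCm38.p6, the build called mm10. Bins were tiled along the chromosome, and those centred in the Dmd window were used. Ratios have conditional exact intervals and shares exact Clopper-Pearson intervals, both at 95% and both too narrow, because a read that covers several listed sites is counted at each; counts of PCR copies are not independent molecules. The call rules were run on simulated data with independent reads and no listing step. That run cannot show how they behave with shared reads and listed sites, so nothing is drawn from it. Python 3.11.15, pandas 2.3.3, NumPy 2.4.6 and SciPy 1.17.1 were used.

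The gene, the lists and the rules were chosen with earlier results of these data known. Named were Dmd, its called bins, genes of at least 500 kb, genes within 500 kb of it, X-linked muscle genes and the 5 nearest genes. The alternatives tried were other scalings, sites, bins and read limits.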

Additional observations from a re-analysis of the deposited data

Results flagged for a closer look

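Data that entered no comparison also held reads in Dmd. Entries that are not single bases numbered 63 in MidK, 142 in LowK and 378 in MEF, or 3.90% (3.01% to 4.96%), 6.57% (5.57% to 7.70%) and 6.98% (6.31% to 7.69%) of the Dmd entries, against 5.56%, 6.13% and 6.97% on the whole chromosome. The MidK share in Dmd lay below that of its chromosome. Reads with neither the B6 nor the variant base numbered 82 in MidK, 54 in LowK and 348 in MEF, or 3.29%, 1.87% and 3.41% of all reads at Dmd sites.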

How the results depend on the processing

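Of 121 alternative values, 83 kept their direction and call or stayed near the reported value, 31 moved, 6 reversed and 1 gained a call. The cause was not tested in any of these. For bin calls only the total of higher and lower calls was compared, so a turn in direction can count as near. An example is LowK over MEF at 50 kb with own reads, with 9 higher and 5 lower against 5 and 8.

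The read ratio of Dmd reversed with the 11 sites listed in all 3 libraries, to log2 -0.33 in MidK over LowK (13 and 16 reads) and -0.36 in MidK over MEF (13 and 17). With a reliability of at least 20, MidK over LowK was called, at 1.33.

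The 100 kb calls, higher and lower together, were 10 in MidK over LowK, 10 in MidK over MEF and 5 in LowK over MEF. In MidK over LowK they numbered 1 with library totals, 1 with the median bin, 1 with the gene's own reads (chosen after seeing the data), 6 with bins shifted, 6 with 1 site per 300 bp and 2 with each such site counted once. In MidK over MEF they numbered 6 with totals, 6 with the median bin, 6 with 1 site per 300 bp and 1 with each counted once. In LowK over MEF they numbered 2 with 1 site per 300 bp, 0 with each counted once and 12 with a reliability of at least 20, of which 2 were higher and 10 lower, against 4 and 1 as reported.

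The 50 kb calls were 16, 15 and 13 in the same order. In MidK over LowK they numbered 5 with totals, 5 with the median bin, 4 with own reads (1 higher and 3 lower, against 16 and 0), 10 with 1 site per 300 bp, 1 with each counted once and 1 with at least 100 reads. In MidK over MEF they numbered 8, 2 and 7 with the last 3 of these settings. In LowK over MEF they numbered 1 with each counted once and 8 with at least 100 reads; these were 0 higher and 8 lower, against 5 and 8 as reported, and 9 and 5 with own reads.

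With a reliability of at least 20 the variant majority in MEF was 59% of 100 sites, against 46.2% of 132, and in MidK 42.1% of 19, against 28.6% of 35. The difference in allele majority between libraries kept its sign there, and it reversed where few sites remained. With at least 3 reads of each base the difference was -13.3 points in MidK over LowK (10 and 3 sites) and 2.56 in LowK over MEF (3 and 13). At sites also listed in MEF it was 53.8 in MidK over MEF (2 and 132) and 3.79 in LowK over MEF (2 and 132).

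The share of reads in the lower 1.20 Mb was 56.8% in MidK, 52.0% in LowK and 64.05% in MEF with 1 site per 300 bp, 57.4% in MidK, 53.8% in LowK and 62.9% in MEF with each counted once, and 51.3% in LowK with a reliability of at least 20. In both settings with 1 site per 300 bp the intervals of MidK and LowK overlapped. Variant-only sites in MEF made up 41.8% at 4 reads. No paired analysis was possible because each group has 1 library and the labels give no replicate numbers. With 1.40 to 1.96 reads per site, allele shares of single sites cannot be resolved.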
